A study of Mus musculus with 9 samples.

Results

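The collagen chain genes of the mouse were followed in hindlimb muscle over the first 2 weeks after birth. They were taken as every gene whose symbol is Col, a number, the letter a and a number, which found 44 genes among the 22180 that the array names singly. The study profiled neonatal hindlimb skeletal muscle at postnatal day 2 (P2), day 7 (P7) and day 14 (P14), on 9 arrays, 3 per age. The mice were of mixed strain and no treatment or engineered allele is labelled at any age. The sources used here do not say whether each replicate was 1 mouse or pooled mice. Values are RMA log2 intensities, so a difference of 1 is a doubling, and 1 probe set was kept per gene, the one with the highest mean over the 9 arrays. The collagens were grouped by their known assembly into 8 fibrillar chains, 8 network-forming chains, 6 fibril-associated chains (FACIT), 7 chains known chiefly from cartilage and 15 others.

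Collagens are extracellular proteins built from chains wound into a triple helix. Fibrillar collagens make the tension-bearing fibrils of the muscle's connective tissue, fibril-associated collagens decorate those fibrils and tune their spacing, and network-forming type IV collagen makes the sheet of the basement membrane that wraps each muscle fibre. Chains are hydroxylated and folded in the endoplasmic reticulum, trimmed and crosslinked outside the cell, and removed by matrix metalloproteinases and cathepsins. In muscle most fibrillar collagen is made by fibroblasts and fibro-adipogenic cells, while cartilage and bone next to the muscle make collagens of their own.

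From P2 to P14 a few fibrillar and fibril-associated chains fell, Col12a1, Col14a1 and Col5a2 most firmly, and the basement-membrane-zone chain Col15a1 rose. In the fit with limma over all 22180 genes, 9 of 44 collagens passed an adjusted p of 0.05 between P2 and P14, where 11.0% of all genes passed. Of these, 7 were lower at P14, or 15.9% of the collagens against 4.40% of all genes and 6.26% of the genes above background. The other 2 were higher, or 4.55% of the collagens against 6.63% of all genes and 10.1% of those above background. The 7 lower chains were Col5a2 and Col5a1 (fibrillar), Col12a1, Col14a1 and Col16a1 (fibril-associated), Col11a1 (cartilage) and Col6a6, and the 2 higher chains were Col15a1 and Col6a5. Without P14 replicate 1 or without P14 replicate 2 the calls came to 5, and without P14 replicate 3 to 6. The arrays were made from whole tissue, so fewer cells of a type and less RNA per cell cannot be told apart. The series design text calls the replicates biological, but whether each was 1 mouse or a pool is not stated. The p-values measure only the spread between these samples.

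The stretch just before the RNA start site is shown for the 6 called chains that have an entry in the RefSeq promoter table of assembly GRCm38.p6, and for Col1a2, whose promoter is a standard model of collagen transcription. Each line holds the 150 bases before the start site, 5′ to 3′ on the gene's own strand. Capitals mark the letters CCAAT, or ATTGG, which is CCAAT read on the opposite strand.
Col5a1, chr2:27886275-27886424, plus strand: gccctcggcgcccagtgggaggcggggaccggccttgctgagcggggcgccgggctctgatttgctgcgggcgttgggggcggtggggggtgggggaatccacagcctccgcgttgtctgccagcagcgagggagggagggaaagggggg
Col1a2, chr6:4505468-4505617, plus strand: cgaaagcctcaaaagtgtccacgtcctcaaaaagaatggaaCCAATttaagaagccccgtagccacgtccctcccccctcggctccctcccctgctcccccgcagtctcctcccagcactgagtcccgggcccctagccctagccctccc
Col16a1, chr4:130047690-130047839, plus strand: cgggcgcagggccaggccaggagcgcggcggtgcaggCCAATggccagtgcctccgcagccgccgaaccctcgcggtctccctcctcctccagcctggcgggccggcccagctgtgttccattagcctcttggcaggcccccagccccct
Col11a1, chr3:114030390-114030539, plus strand: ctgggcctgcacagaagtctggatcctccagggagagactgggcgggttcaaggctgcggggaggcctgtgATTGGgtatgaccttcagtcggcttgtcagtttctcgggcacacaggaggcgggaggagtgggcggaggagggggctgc
Col6a6, chr9:105828086-105828235, minus strand: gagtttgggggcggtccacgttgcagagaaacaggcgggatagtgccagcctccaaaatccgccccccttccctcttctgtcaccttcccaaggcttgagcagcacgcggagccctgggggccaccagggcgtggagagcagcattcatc
Col15a1, chr4:47207862-47208011, plus strand: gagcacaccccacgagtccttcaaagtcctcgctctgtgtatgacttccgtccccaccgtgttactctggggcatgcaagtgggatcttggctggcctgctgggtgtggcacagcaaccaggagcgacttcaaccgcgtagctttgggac
Col6a5, chr9:105960644-105960793, minus strand: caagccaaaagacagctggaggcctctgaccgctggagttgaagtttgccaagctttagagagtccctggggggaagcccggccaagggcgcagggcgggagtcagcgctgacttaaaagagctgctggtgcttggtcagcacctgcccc
Counting the base before the start site as -1, CCAAT began at -109 in Col1a2 and at -113 in Col16a1, and ATTGG began at -79 in Col11a1. The windows of Col5a1, Col6a6, Col15a1 and Col6a5 held neither CCAAT nor TATAAA on either strand. Of 38 collagen promoters, which belong to 35 of the 44 genes, 8 held CCAAT on either strand (21.1%), against 24.5% of all 32851 promoters in the table. TATAAA, the other motif searched, was held by 4 of the 38 (10.5%) and by 7.57% of all promoters. Chains that were lower and chains that were higher at P14 both include windows without either motif, and these matches are descriptions of letters only.

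Markers of cartilage and bone varied between arrays of 1 age. Muscle markers were high on every array and rose with age. Their mean over 8 genes was 9.06 to 10.2 at P2, 10.7 to 10.8 at P7 and 11.0 at P14. Of the 8, 3 passed limma's test as higher at P14 than at P2 (6.63% of all genes). The part of this rise in the collagen differences was not tested. The background level was 3.24. That level was the 95th percentile of 1428 olfactory, vomeronasal and taste receptor genes, which muscle is not known to express. Of 7 epidermal genes measured, 1 passed limma's test as higher at P14 than at P2, where 6.63% of all genes did. All P14 arrays lay above P2 for 3 of the 7 (16.2% of all genes). The 4 above background in at least 1 age had a mean of 3.21 to 3.26 at P2 and 3.51 to 4.04 at P14. Genes could enter that mean through the later ages alone, so its rise is partly set by the choice. Krt10, a keratin of the upper epidermis, was the gene that passed (log2 0.92, adjusted p = 0.0151, up to 0.0855 with 1 array left out). Krt14 of the basal layer was under background at all ages. The mean of 13 cartilage markers was 5.20 on P2 replicate 2 and between 3.54 and 4.06 on the other arrays. Ibsp, bone sialoprotein and a product of bone-forming cells, measured 8.08, 6.54 and 5.90 at P2, 6.65, 5.85 and 2.52 at P7, and 2.12, 2.46 and 2.62 at P14. It was therefore high at P2 and on 2 arrays of P7, and under background on P7 replicate 3 and on every array of P14. Replicates of an age correlated between 0.953 and 0.984 over all genes, least at P2.

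Of the 44 collagens, 43 had a mean above background in at least 1 age and 37 at every age; Col6a4 was under it at all 3. The median log2 difference between P14 and P2 was -0.32 over the collagens and 0.01 over all genes. Means fell at both steps for 20 collagens (45.5%), against 22.4% of all genes. All 3 arrays of P14 lay under all 3 of P2 for 18 collagens (40.9%), against 12.6% of all genes and 14.3% of the genes above background. All 3 lay above for 6 collagens, while 16.2% of all genes did so. At an unadjusted p under 0.05 there were 22 collagens between P2 and P14, where 24.3% of all genes lay, 17 of them lower (10.6% of all genes) and 5 higher (13.7% of all genes). Between P2 and P7 limma called 0 collagens, where 0.329% of all genes passed, and 10 had an unadjusted p under 0.05, where 12.8% of all genes did. These were 7 lower (6.61% of all genes) and 3 higher (6.22% of all genes). Between P7 and P14 it called 0 as well, where 2.43% of all genes passed, and 8 had an unadjusted p under 0.05 (14.6% of all genes). All 8 were lower at P14, where 5.07% of all genes were lower and 9.58% higher. P7 lay wholly under P2 for 5 collagens (7.90% of all genes) and wholly above it for 5 (7.30% of all genes), and P14 lay wholly under P7 for 10 (9.13% of all genes). The 2 intervals, of 5 and 7 days, gave 0 collagens a different change by limma (0.194% of all genes passed), with 2 at an unadjusted p under 0.05 (8.12% of all genes). Over the 3 ages together the F-test called 7 collagens, where 8.24% of all genes passed. The 3 pairwise comparisons share arrays and are not independent of each other.

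**Figure D1:**
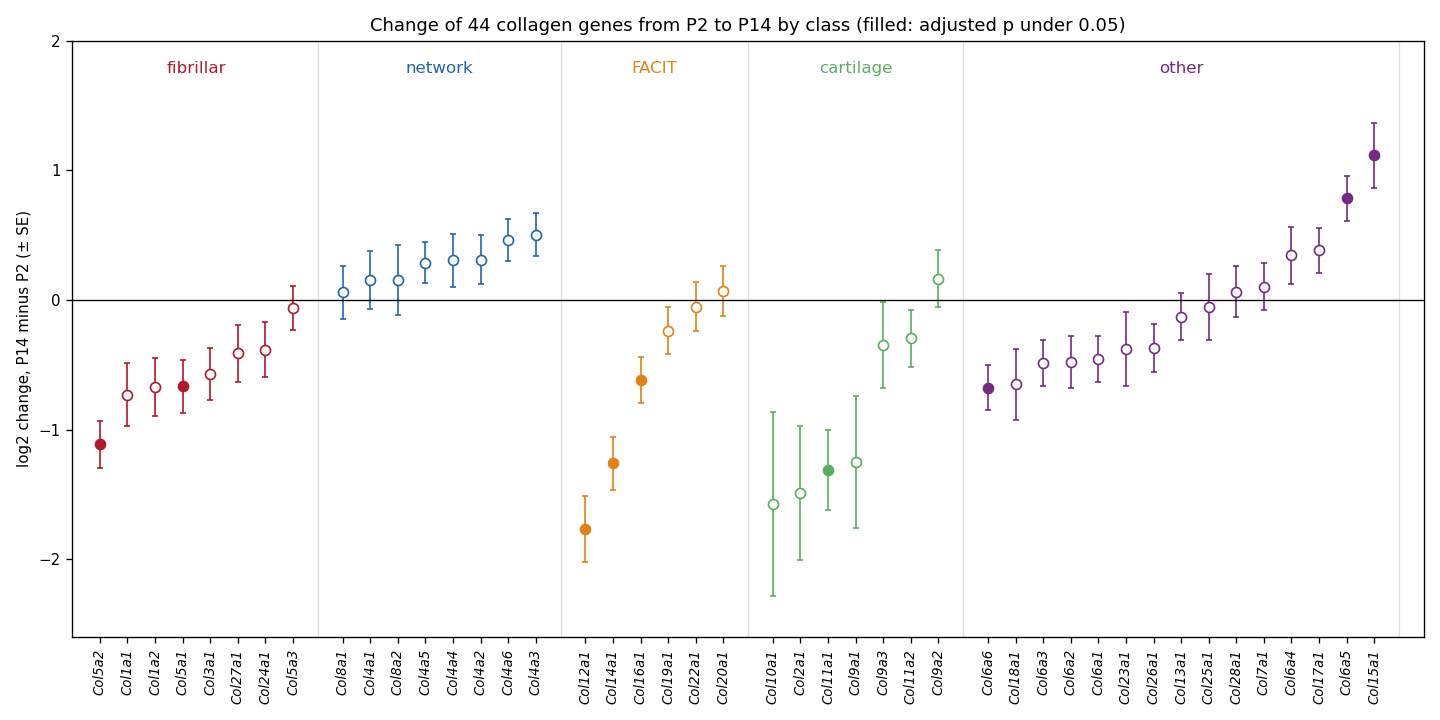
Log2 difference of P14 minus P2 for the 44 collagen chains, grouped by class, with bars of 1 SE from limma over 3 arrays per age. The 8 fibrillar chains all lie under 0, the 8 network-forming chains all lie over 0, and the 9 chains that passed an adjusted p of 0.05 have filled points.

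The fibrillar chains had lower means at P14, with 8 of 8 differences negative, where 48.2% of all genes were negative, and a median of -0.62. Without P2 replicate 3 or without P14 replicate 2, 7 of 8 were negative. Of the 8, 2 passed the test as lower, where 4.40% of all genes did. Col5a2, the chain of type V collagen that nucleates and limits the width of type I fibrils, measured 7.35, 7.38 and 7.77 at P2, 7.04, 6.96 and 6.60 at P7, and 6.37, 6.31 and 6.47 at P14. No array of a later age overlapped an earlier one at either step. Col5a2 fell 2.16-fold from P2 to P14 (log2 -1.11 ± 0.18 SE, n = 3 per age, adjusted p = 0.00121).

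Its partner chain Col5a1 measured 7.15, 6.93 and 7.67 at P2, 7.18, 6.74 and 6.86 at P7, and 6.57, 6.50 and 6.69 at P14. The P14 arrays lay under all P2 arrays, while P7 overlapped P2. Col5a1 fell 1.59-fold (log2 -0.67 ± 0.20 SE, adjusted p = 0.0499), a call at the edge of the threshold that was lost in 8 of 9 fits with 1 array left out. It was also lost when every probe set was fitted (adjusted p = 0.0530) and with the mean of the gene's probe sets (log2 -0.18, adjusted p = 0.535). A second, dimmer probe set of Col5a1 differed by 0.30 in the opposite direction, which did not pass (adjusted p = 0.285). The third type V chain, Col5a3, gave -0.06 with a 95% interval of -0.43 to 0.31.

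Type I and type III collagen, the bulk fibril proteins, had lower means at P14 but did not pass the test. Col1a1 measured 11.15, 10.30 and 11.13 at P2, 11.00, 10.50 and 10.30 at P7, and 9.94, 10.15 and 10.30 at P14. P2 replicate 2, the array with the most cartilage signal, lay level with the highest P14 array. The other P2 arrays stood well above that level. P2 replicate 2 also had the lowest P2 mean of the 7 bone markers above background in at least 1 age. That mean was 3.85, against 5.07 on P2 replicate 1 and 4.40 on P2 replicate 3. Col1a1 and the bone mean ranked the arrays alike at P2 and at P7, but not at P14. The part of bone tissue in the type I collagen values was not tested. The difference of -0.73 ± 0.24 had an adjusted p of 0.0712, and without P2 replicate 2 it was -1.01 with an adjusted p of 0.00878. Leaving out P2 replicate 1 gave -0.59 (adjusted p = 0.226), and leaving out P2 replicate 3 also gave -0.59 (adjusted p = 0.184). Col1a2, the second chain of type I collagen, measured 9.97, 9.48 and 10.12 at P2 and 9.01, 9.22 and 9.32 at P14, so the groups did not overlap. Its difference was -0.67 ± 0.22 (adjusted p = 0.0713), or -0.86 without P2 replicate 2 (adjusted p = 0.0250), while leaving out P2 replicate 3 gave -0.54 (adjusted p = 0.186). A second, dimmer probe set of Col1a2 gave -0.69 (adjusted p = 0.335 in a fit of every probe set). That probe set measured 7.29, 8.33 and 7.45 at P2, highest on replicate 2, and 6.86, 6.92 and 7.22 at P14.

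Col3a1, the type III chain of fine reticular fibrils, measured 9.98, 10.28 and 10.80 at P2, 10.39, 10.18 and 10.34 at P7, and 9.79, 9.69 and 9.87 at P14. Every P14 array lay under every array of the earlier ages. The difference from P2 was -0.57 ± 0.20 (adjusted p = 0.0884), and it was -0.76 without P2 replicate 1 (adjusted p = 0.0342). Leaving out P2 replicate 3 gave -0.35 (adjusted p = 0.253). The log2 difference Col3a1 minus Col1a1 moved by 0.16 from P2 to P14 (exact two-sided permutation test, p = 0.9, smallest possible 0.1), by 0.21 from P2 to P7 (p = 0.6) and by -0.05 from P7 to P14 (p = 0.8). With 3 arrays against 3 this test cannot reach 0.05, so it does not decide whether type III shifted against type I collagen, and the sign at each step turned when 1 array was left out. The minor fibrillar chains Col24a1 and Col27a1 gave -0.38 and -0.41, neither past the test.

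**Figure D2:**
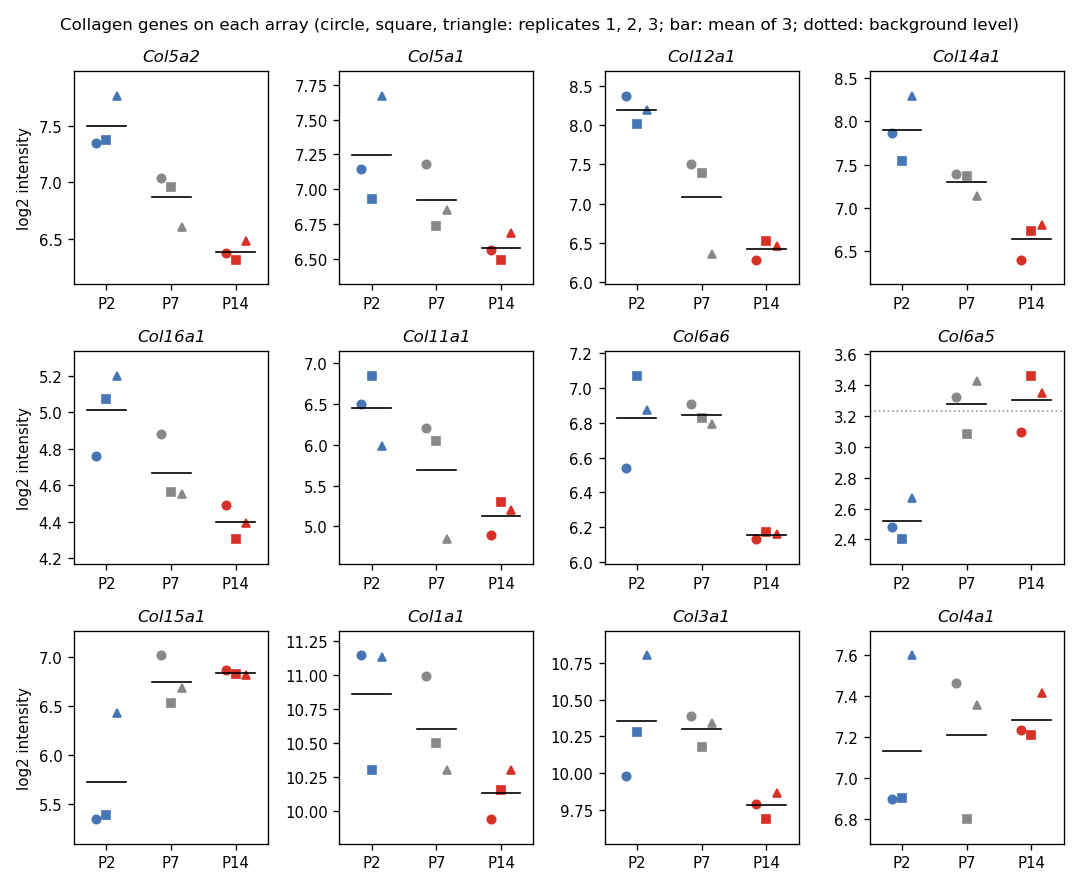
Log2 intensity of single collagen chains on each of the 9 arrays by age, with the mean of 3 as a bar and the background level as a dotted line. Col5a2, Col12a1 and Col14a1 show P14 arrays wholly under the P2 arrays, and Col15a1 shows P7 and P14 arrays wholly above the P2 arrays.

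The fibril-associated chains held the largest fall that passed the test. Of the 6 measured, 3 fell from P2 to P14 (4.40% of all genes), and the median difference of the class was -0.43. Col12a1, which coats type I fibrils in tendon, fascia and muscle connective tissue and whose loss in patients causes a myopathy, measured 8.37, 8.02 and 8.20 at P2, 7.51, 7.39 and 6.36 at P7, and 6.29, 6.53 and 6.47 at P14. All arrays of P7 and P14 lay under P2, and P7 replicate 3 was already within the P14 range. Col12a1 fell 3.40-fold from P2 to P14 (log2 -1.77 ± 0.25 SE, adjusted p = 0.000422). The earlier step gave -1.11 ± 0.25 and missed the threshold (adjusted p = 0.0773). P7 replicate 3 is also the P7 array on which Ibsp was under background. The mean of 7 tendon markers was lowest there too, at 5.37, against 5.87 and 6.12 on P7 replicates 1 and 2. The parts of bone and tendon tissue in the Col12a1 value of P7 replicate 3 were not tested.

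Col14a1, a related chain that regulates early fibril growth, measured 7.87, 7.54 and 8.29 at P2, 7.39, 7.37 and 7.13 at P7, and 6.40, 6.73 and 6.80 at P14. It stepped down without overlap at both intervals, and P7 replicate 3 stayed above the P14 arrays. Col14a1 fell 2.39-fold (log2 -1.26 ± 0.20 SE, adjusted p = 0.00115). Col12a1, Col14a1 and Col5a2 kept their calls in all 9 fits with 1 array left out and under all 9 other settings tried, with adjusted p at most 0.00972.

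Col16a1, a fibril-associated chain found at the edges of fibrillin-rich microfibrils, measured 4.76, 5.08 and 5.20 at P2, 4.88, 4.56 and 4.55 at P7, and 4.49, 4.30 and 4.39 at P14. Its P14 arrays were all under P2, by a narrower gap than those of Col14a1. Col16a1 fell 1.53-fold (log2 -0.62 ± 0.18 SE, adjusted p = 0.0368), a call lost in 5 of 9 fits with 1 array left out, with adjusted p up to 0.138. Col22a1, a chain of the junction between muscle and tendon, gave -0.05 with a 95% interval of -0.45 to 0.35. Col19a1, known from muscle differentiation in the embryo, gave -0.24 (95% interval -0.63 to 0.15), and Col20a1 gave 0.07.

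The network-forming chains went the other way in their means, without a call. All 8 differences between P14 and P2 were positive, where 51.8% of all genes and 57.8% of those above background were positive, with a median of 0.30. Of the 8, 0 passed limma's adjusted threshold and 2 had an unadjusted p under 0.05. At that level lay 24.3% of all genes, and 13.7% were higher. Col4a1, a chain of the main type IV heterotrimer of muscle basement membrane, measured 6.90, 6.90 and 7.60 at P2, 7.47, 6.80 and 7.36 at P7, and 7.23, 7.21 and 7.41 at P14. The ages overlapped, and the difference of 0.15 had a 95% interval of -0.33 to 0.63. Its partner Col4a2 measured 6.37, 6.30 and 6.93 at P2 and 6.92, 6.76 and 6.85 at P14, with a difference of 0.31 and a 95% interval of -0.09 to 0.71. With cyclic loess scaling Col4a1 was -0.02, so that 7 of 8 chains were positive, and 7 of 8 were also positive without P2 replicate 1, without P2 replicate 2 or without P14 replicate 3. Mean levels of vascular markers were also higher at P14. The mean of 8 endothelial genes was 5.50 to 6.13 at P2 and 6.15 to 6.28 at P14. Of these 8, 1 passed the test as higher (6.63% of all genes). It was Esam (log2 0.74, adjusted p = 0.0267, up to 0.126 with 1 array left out). The mean of 8 pericyte and smooth muscle genes was 6.05 to 6.37 at P2 and 6.64 to 6.83 at P14. Of these 8, 4 passed as higher (6.63% of all genes), among them Rgs5, a pericyte regulator of signalling (log2 1.98, adjusted p = 0.000355). Differences were negative for 3 of the 8 (48.2% of all genes), down to -0.48. Of these 3, 1 was lower at an unadjusted p under 0.05 (10.6% of all genes). The part of vessel cells in the network-forming chains and in Col15a1 was not tested. Neither 95% interval reaches the change measured for Col5a2 or Col12a1.

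Col4a1 and Col4a2 are a head-to-head pair whose annotated starts overlap, and the overlapping sequence is shown for that reason. RefSeq places the start of Col4a2, on the plus strand, at chr8:11312805 and that of Col4a1, on the minus strand, at chr8:11312826 in GRCm38.p6, 21 bases apart. As annotated, each gene is read through the start site of the other. The 22 bases of this overlap, written on the plus strand, are as follows.
Col4a2 to Col4a1 start sites, chr8:11312805-11312826: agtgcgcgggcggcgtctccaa
The difference Col4a2 minus Col4a1 lay between -0.67 and -0.15 on the 9 arrays. The minor type IV chains were dim. Col4a3 gave 0.50 ± 0.16 (adjusted p = 0.0645) and Col4a6 gave 0.47 ± 0.16 (adjusted p = 0.0829), with P2 means under background in both, so no fold is given. Col4a3 passed with the filter on dim genes (adjusted p = 0.0398) and Col4a6 without P2 replicate 2 (adjusted p = 0.0435). Col4a5 gave 0.29, Col4a4 gave 0.31, and the type VIII chains Col8a1 and Col8a2, of vessel walls and the cornea, gave 0.06 and 0.15.

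**Figure D3:**
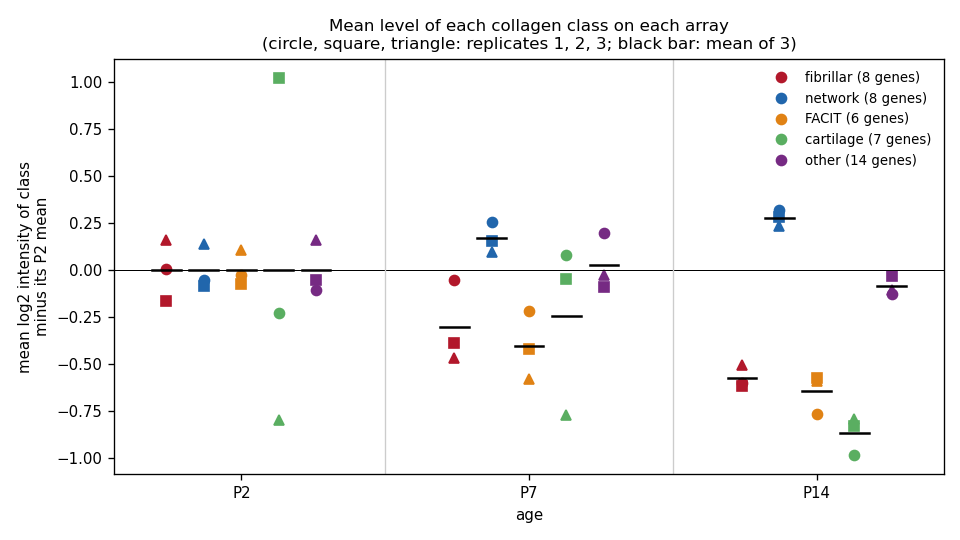
Mean log2 intensity of each collagen class on each array, drawn as the difference from the class mean at P2, for the 43 chains above background in at least 1 age. Fibrillar and FACIT means at P14 lie under every P2 array and network means lie over every P2 array, while the cartilage class spreads widely at P2. The network mean includes Col4a3, Col4a4 and Col4a6, whose P2 means were under background.

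Per array, the mean of the 8 fibrillar chains was 7.66, 7.48 and 7.81 at P2 and 7.05, 7.03 and 7.14 at P14. The mean of the 6 fibril-associated chains was 5.57 ± 0.093 (SD, n = 3) at P2 and 4.93 ± 0.11 at P14. The mean of the 8 network-forming chains was 4.23, 4.19 and 4.42 at P2 and 4.60, 4.56 and 4.51 at P14. The fibrillar and fibril-associated means were thus separated between P2 and P14. The network mean was separated too, but it includes 3 chains with P2 means under background, which entered it through later ages alone. Its separation without them was not tested. Of the 8 single network-forming chains, 3 had P14 arrays wholly above P2 (16.2% of all genes). Col4a1, Col4a2, Col8a1 and Col8a2 overlapped, and Col4a3, Col4a4 and Col4a6 had P2 means under background. The mean of 11 fibroblast markers lay between 6.66 and 6.96 on all 9 arrays, and P2 and P14 overlapped. Within that list Tcf7l2, a transcription factor of connective tissue fibroblasts, fell (log2 -0.92, adjusted p = 0.00269). Pdgfra, a receptor marking fibro-adipogenic cells, fell (log2 -0.63, adjusted p = 0.0496) and Gsn, the actin-severing protein gelsolin, rose (log2 0.55, adjusted p = 0.0449), both calls that were lost in 8 of 9 fits with 1 array left out.

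The cartilage chains varied widely between arrays, with a class mean of 5.07 ± 0.93 (SD, n = 3) at P2, 4.83 ± 0.46 at P7 and 4.20 ± 0.10 at P14. Col2a1, the fibril chain of cartilage, measured 5.94, 7.81 and 4.60 at P2, 6.16, 6.08 and 5.81 at P7, and 4.59, 4.72 and 4.57 at P14. P2 replicate 2 stood far above the other P2 arrays, and P2 replicate 3 was at the level of P14. The difference between P14 and P2 was -1.49 ± 0.52 (adjusted p = 0.0835). Leaving out P2 replicate 2 gave -0.64 (adjusted p = 0.199). Leaving out P2 replicate 3 gave -2.25 (adjusted p = 0.00239).

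Col9a1, a chain on the surface of type II fibrils, measured 3.73, 6.16 and 3.27 at P2 and 2.98, 3.19 and 3.24 at P14, again highest on P2 replicate 2. Its difference was -1.25 ± 0.51 (adjusted p = 0.139), with a P14 mean under background. Leaving out P2 replicate 2 gave -0.36 (adjusted p = 0.309), while leaving out replicate 3 of that age gave -1.81 (adjusted p = 0.0282). Col10a1, the marker of hypertrophic cartilage, measured 5.06, 6.86 and 3.46 at P2, 5.76, 6.30 and 3.51 at P7, and 3.71, 3.24 and 3.70 at P14. Both ages before P14 held 2 high arrays and 1 low one, and the difference of -1.57 ± 0.71 had an adjusted p of 0.188. The same 2 omissions gave -0.71 (adjusted p = 0.544) and -2.41 (adjusted p = 0.0318). The array order was shared with cartilage matrix markers, since Acan (aggrecan) measured 4.41, 5.88 and 4.24 at P2 and Matn1 (matrilin) measured 2.94, 5.61 and 2.83, both highest on P2 replicate 2. Acan fell by P14 (log2 -1.67, adjusted p = 0.00814). Of the 13 cartilage markers, Acan was lower, Sox6, a factor also active in muscle fibres, was higher (adjusted p = 0.0207, lost in 4 of 9 fits with 1 array left out and with cyclic loess), and 11 did not pass. Of all genes 4.40% were lower and 6.63% higher. The part of attached cartilage in the cartilage collagens was not tested.

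Col11a1 was the only chain of this class that passed the test. It measured 6.50, 6.85 and 5.98 at P2, 6.21, 6.04 and 4.84 at P7, and 4.89, 5.30 and 5.20 at P14. P14 lay wholly under P2, and P7 replicate 3 was under all P14 arrays. Col11a1, which nucleates thin fibrils in cartilage and in other young connective tissue, fell 2.48-fold (log2 -1.31 ± 0.31 SE, adjusted p = 0.0132). Without P2 replicate 2 the fall was 1.11 on the log2 scale with an adjusted p of 0.0494, and without P14 replicate 1 the call was lost (adjusted p = 0.0648). The median difference of the 7 chains was -1.25, and -0.36 without P2 replicate 2. Col9a2, Col9a3 and Col11a2 gave 0.17, -0.35 and -0.29, none past the test.

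**Figure D4:**
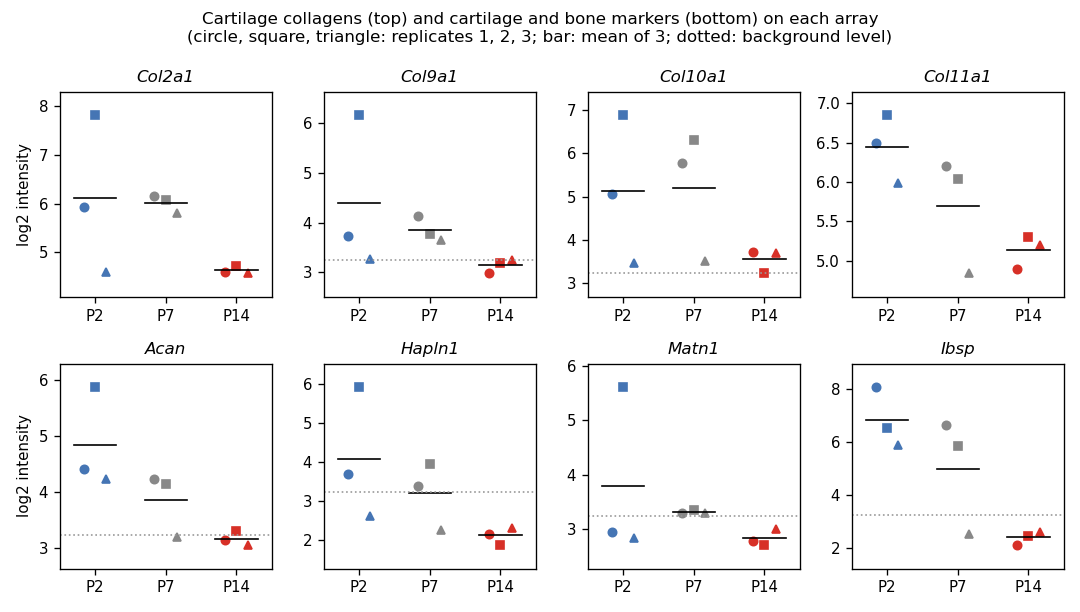
Log2 intensity of 4 cartilage collagens (top) and of 3 cartilage markers and the bone marker Ibsp (bottom) on each array, with the mean of 3 as a bar and the background level dotted. P2 replicate 2 (square) is the highest P2 array for every collagen and cartilage marker shown, and Ibsp is highest on P2 replicate 1 and under background at P14.

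Among the remaining chains, Col15a1 was the clearest rise. Col15a1, a multiplexin that links the basement membrane of muscle fibres and capillaries to the fibrils outside it, measured 5.35, 5.39 and 6.42 at P2, 7.02, 6.52 and 6.68 at P7, and 6.87, 6.82 and 6.82 at P14. Every P7 and P14 array was above every P2 array, and P7 and P14 overlapped. Col15a1 rose 2.17-fold from P2 to P14 (log2 1.12 ± 0.25 SE, adjusted p = 0.0102). The step from P2 to P7 was 1.02 ± 0.25 and missed the threshold (adjusted p = 0.101), and without P2 replicate 1 the change from P2 to P14 was 0.93 with an adjusted p of 0.0523. The other multiplexin, Col18a1, the source of endostatin, gave -0.65 ± 0.27 (adjusted p = 0.154), and it ranged from -0.94 without P2 replicate 2 (adjusted p = 0.0336) to -0.30 without P2 replicate 3 (adjusted p = 0.449).

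Type VI collagen forms beaded filaments around muscle fibres, and its loss causes congenital muscular dystrophy. Col6a1, Col6a2 and Col6a3, the chains of its main form, gave -0.46 ± 0.18, -0.48 ± 0.20 and -0.49 ± 0.18, with adjusted p of 0.124, 0.152 and 0.102. Col6a1 ranged from 8.02 to 8.50 at P2 and from 7.76 to 7.88 at P14 without overlap, and Col6a3 ranged from 7.39 to 7.89 and from 6.97 to 7.24, also without overlap. A second, dimmer probe set of Col6a1 gave -0.93 (adjusted p = 0.00934 in a fit of every probe set). With cyclic loess scaling all 3 chains passed, with adjusted p of 0.0195, 0.0358 and 0.0201. Without P2 replicate 3 the differences were -0.33, -0.29 and -0.36, with adjusted p of 0.282, 0.378 and 0.247.

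Col6a6, an alternative chain of type VI collagen, measured 6.54, 7.07 and 6.87 at P2, 6.91, 6.83 and 6.79 at P7, and 6.13, 6.17 and 6.16 at P14. P2 and P7 overlapped, and all P14 arrays were lower. Col6a6 fell 1.60-fold from P2 to P14 (log2 -0.68 ± 0.17 SE, adjusted p = 0.0202), a call lost in 4 of 9 fits with 1 array left out. From P7 to P14 the difference was -0.69 ± 0.17 (adjusted p = 0.0504). Col6a5, another alternative chain, measured 2.48, 2.40 and 2.67 at P2, 3.32, 3.08 and 3.42 at P7, and 3.09, 3.46 and 3.35 at P14. Its P2 arrays were under background and the later arrays near it, so the rise (log2 0.78 ± 0.17, adjusted p = 0.00939) is given with no fold.

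The transmembrane collagen Col13a1, which anchors the neuromuscular junction, gave -0.13 with a 95% interval of -0.52 to 0.26. Col17a1, of epithelial hemidesmosomes, gave 0.38 ± 0.18 (adjusted p = 0.201) from a P2 mean under background. The differences of Col7a1, Col23a1, Col25a1, Col26a1 and Col28a1 lay between -0.38 and 0.10, and none passed.

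The genes that make and remove collagen were counted from lists of pathway members. Of 19 measured genes of chain hydroxylation and folding, 5 were lower and 0 higher at P14 than at P2 (4.40% and 6.63% of all genes), with a median difference of -0.36, and 3 were lower without P14 replicate 1. Plod2, the lysyl hydroxylase of the telopeptides that sets the type of crosslink, measured 6.47, 6.27 and 5.75 at P2, 5.46, 5.27 and 5.11 at P7, and 4.64, 4.45 and 4.43 at P14. Plod2 stepped down without overlap at both intervals and fell 3.16-fold (log2 -1.66 ± 0.20 SE, adjusted p = 9.51e-05). Crtap and Ppib, partners in the complex for prolyl 3-hydroxylation, fell by 0.91 and 0.71 on the log2 scale (adjusted p = 0.00604 and 0.0148), and the call of Ppib was lost without P14 replicate 1 (adjusted p = 0.0847). P4hb, the shared subunit of prolyl 4-hydroxylase and named after its value was seen, fell by 0.58 (adjusted p = 0.0436, up to 0.179 with 1 array left out). P4ha3, a catalytic subunit whose P14 mean was under background, fell by 1.39 (adjusted p = 0.00495). The main catalytic subunit gene P4ha1 gave -0.04 (95% interval -0.43 to 0.35), and the collagen chaperone Serpinh1 gave -0.75 (adjusted p = 0.0539).

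Of 4 measured lysyl oxidase genes, which crosslink fibrils, limma called 0 and 2 were lower at an unadjusted p under 0.05 (10.6% of all genes). Lox gave -0.77 (adjusted p = 0.0758) and Loxl1 gave -0.62 (adjusted p = 0.0503), with P14 arrays all under P2 in both. Of 7 genes that remove propeptides limma called 0, with 1 higher at an unadjusted p under 0.05 (13.7% of all genes). Bmp1, which cleaves the C-terminal propeptide, gave -0.36 (adjusted p = 0.282).

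Of 14 genes of collagen breakdown and its inhibitors, 8 were lower and 1 higher at P14 (4.40% and 6.63% of all genes). Fap, a fibroblast surface protease that trims cleaved collagen, measured 7.02, 6.89 and 7.11 at P2 and 6.28, 6.11 and 6.25 at P14, and it fell 1.73-fold (log2 -0.79, adjusted p = 0.0050). Mmp14, the membrane-bound collagenase, measured 8.29, 7.72 and 8.78 at P2 and 7.16, 7.37 and 7.35 at P14, and it fell 1.96-fold (log2 -0.97, adjusted p = 0.0195, up to 0.0822 with 1 array left out). Ctsk, the collagen-cutting protease of osteoclasts, measured 7.19, 5.65 and 6.39 at P2, 6.37, 5.53 and 4.64 at P7, and 4.48, 4.95 and 4.73 at P14. It fell 3.23-fold (log2 -1.69, adjusted p = 0.0119, but 0.0610 without P2 replicate 1 and 0.0563 without P14 replicate 1), and like Ibsp it was highest on P2 replicate 1 and lowest at P7 on replicate 3.

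Mmp13, the collagenase of bone and hypertrophic cartilage, was 2.52 on P7 replicate 3 and at most 2.90 at P14, under background, against 4.81 to 6.64 at P2 (adjusted p = 0.00858, or 0.0927 with a trended robust prior). Without P2 replicate 1 or without P14 replicate 1, 2 of the 14 genes were lower. Without P2 replicate 3 or P14 replicate 2 the number was 5, and without P14 replicate 3 it was 4. The part of bone tissue in this list was not tested. Mmp2, a gelatinase of connective tissue, gave -0.16 (95% interval -0.53 to 0.22), and the inhibitor Timp4 rose by 1.17 on the log2 scale from P7 to P14 (adjusted p = 0.0121, up to 0.0736 with 1 array left out) from a P7 mean under background. Of 8 receptor genes 2 rose (6.63% of all genes), the integrin chains Itga11 (log2 0.87, adjusted p = 0.0075) and Itga1 (log2 0.70, adjusted p = 0.0123), which bind fibrillar and network collagens, while the receptor kinase Ddr2 gave 0.28 (95% interval -0.13 to 0.69). Itga1 missed the threshold without P14 replicate 1 (adjusted p = 0.0679) or without P14 replicate 2 (adjusted p = 0.0553).

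**Figure D5:**
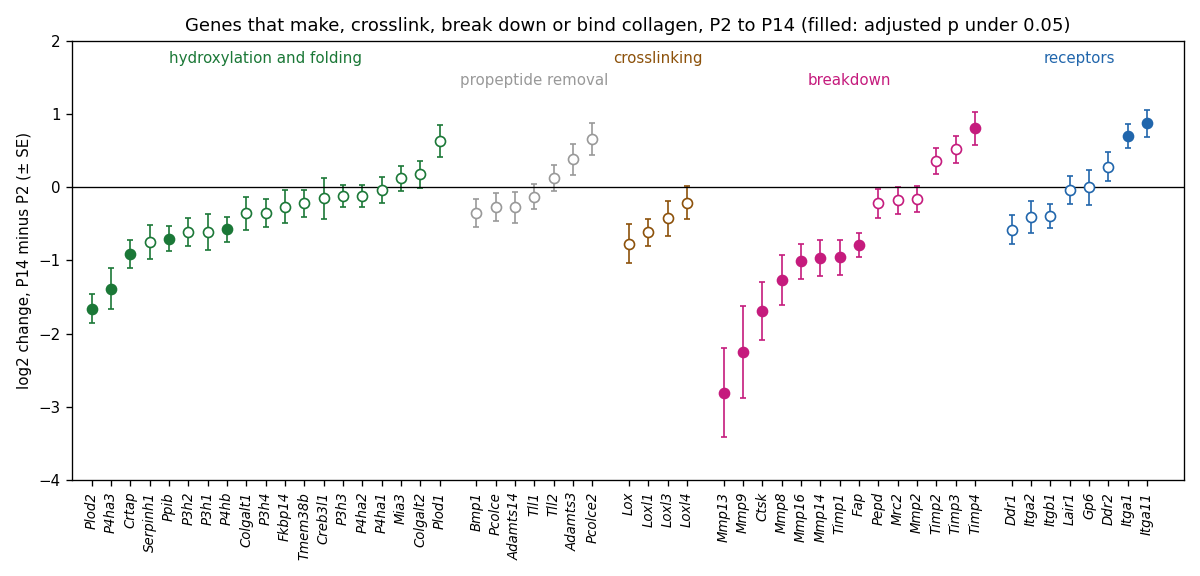
Log2 difference of P14 minus P2 for the measured genes of each collagen pathway list, 1 point per gene with a bar of 1 SE, filled where the adjusted p was under 0.05. Of the genes of hydroxylation and folding 5 of 19 were lower, and of the receptors 2 of 8 were higher. Of the genes of breakdown and its inhibitors, drawn as 1 list, 8 of 14 were lower and 1 was higher. Of all genes 4.40% were lower and 6.63% higher.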

How the data were processed

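Gene expression was measured by single-colour array in 9 samples of neonatal mouse hindlimb muscle, 3 at each age, from 6 ug of total RNA per the labels' protocols. The deposited table holds log2 intensities of 41345 probe sets. Per the submitters' processing notes the authors used RMA and Partek (versions not given). Platform, settings and genome build are likewise not stated in what was used here. The log2 base is taken from RMA. The number of arrays limits the precision.

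Probe sets were named from a platform annotation table, which gives 1 symbol for 23521 probe sets and several for 1814; the latter and unlisted probe sets were left out. Of the 23521, 23328 matched the RefSeq table of GRCm38.p6 by Entrez number. The probe set with the highest mean represented each of 22180 genes, and 47 probe sets covered the 44 collagens. The tests came from limma 3.58.1 under R 4.3.3 (1 mean per age, all 9 arrays, empirical Bayes), with Benjamini-Hochberg adjustment over all genes at 0.05, and checked on simulated data. The members and lists were chosen with earlier results of these data known. Named collagens are those called at any step, the 5 largest rises and falls above background and a set of main chains; named list genes are up to 4 called per list and step plus a set of main genes. Alternatives were a replicate block, each array left out, 2 other scalings, a filter on dim genes, 2 ways of treating several probe sets, 2 weighting options and Xist, a marker of sex, as a covariate, the last chosen after seeing the data.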

Additional observations from a re-analysis of the deposited data

How the results depend on the processing

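The count of collagens called between P2 and P14, 9 in the fit reported, was 5 to 11 when 1 array was left out and 15 with cyclic loess scaling (2 higher and 13 lower). Under the other settings it was 8 to 12. The count by the F-test, 7 in the fit reported, was 4 to 8 with 1 array left out and 13 with cyclic loess. Between P7 and P14, where 0 were called, 0 to 2 were called with 1 array left out, 2 with cyclic loess, 3 with array weights, and 1 each with arrays centred on their medians, with the filter on dim genes, with the mean of a gene's probe sets and with a trended robust prior. Between P2 and P7, where 0 were called, 0 to 1 were called with 1 array left out, 2 with the filter and 1 with the trended robust prior. The difference of intervals gave 0 under every setting run. The share of all genes called was not counted under these settings. Whether the counts here, or those given above with an array left out, moved apart from all genes is therefore not known.

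Among the collagens chosen to be named, signs turned for 3 small differences that had not passed: Col4a1 was -0.015 with cyclic loess, and with 1 array left out Col22a1 ranged from -0.16 to 0.050 and Col13a1 from -0.21 to 0.024. With 1 array left out, Col3a1 relative to Col1a1 ranged from -0.12 to 0.45 for P7 against P2, from -0.20 to 0.12 for P14 against P7 and from -0.17 to 0.40 for P14 against P2. The causes of these moves were not tested.

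Deviations of same-numbered arrays correlated between -0.029 and 0.057 over 9 pairs, and those of differently numbered arrays between -0.082 and 0.106 over 18. Replicate numbers thus gave no sign of pairing, which does not show that the arrays were unpaired. With the replicate block 8 collagens were called between P2 and P14, and Col16a1 missed the threshold (adjusted p = 0.0583). Signal was above background at every age for 37 of the 44 chains, and no fold is given for a chain with a mean under it.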

Other observations

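Collagen-like genes outside the collagen symbols were measured as a separate list of 8, of which 1 passed as lower (4.40% of all genes). Eda, ectodysplasin, a signalling protein with a short collagen-like stretch, fell 1.92-fold from P2 to P14 (log2 -0.94 ± 0.21 SE, limma, adjusted p = 0.00859, or 0.0526 without P14 replicate 2), and the other 7 did not pass. Tendon markers gave 0 calls of 7 by limma between P2 and P14, with a median difference of 0.05 and 4 of 7 positive. At an unadjusted p under 0.05 there were 2, where 24.3% of all genes lay. These were Kera, the proteoglycan keratocan, at 1.01 (adjusted p = 0.0956) and Tnmd, tenomodulin of tendon cells, at -0.54 (adjusted p = 0.193). Scx, the transcription factor of tendon cells, gave -0.14. Of 8 bone markers 1 was lower at P14 (4.40% of all genes), Ibsp (adjusted p = 0.00184, or 0.0570 with a trended robust prior).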
